A study of Mus musculus with 2 samples.

Results

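Rab GTPases, the small GTPases that direct vesicle traffic between membranes, were compared between Cuzd1-null and Cuzd1-heterozygous mammary epithelial cells taken on day 18 of pregnancy. They were found in the probe annotation as probe sets with a single symbol made of Rab, digits and at most a short ending such as a letter, which leaves out partner genes such as Rab11fip1. This gave 132 probe sets of 59 genes, out of 34945 probe sets of 18193 genes with a single symbol. The null pool held RNA from 5 mice of the knockout genotype, and the heterozygous pool held RNA from 5 littermates that carry 1 targeted Cuzd1 allele, so no wild-type mice entered the comparison. All mice were largely C57BL/6 by backcrossing, and no age is recorded in the labels. Each pool was hybridised to 1 Affymetrix array. There is therefore no replicate, and no test was run: the values describe these pools and carry no error for the genotypes.

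A Rab protein cycles between a GTP-bound form on a membrane and a GDP-bound form that can be extracted into the cytosol. Exchange factors load it with GTP, GTPase-activating proteins switch it off, a geranylgeranyl anchor holds it to the membrane, and the GDP dissociation inhibitors recycle it. Each Rab marks particular compartments and recruits its own effectors there. In the late-pregnant gland, alveolar cells build up the secretory pathway that carries caseins through the Golgi to the apical surface and releases lipid droplets as milk fat globules.

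Signals are the deposited MAS5 intensities. A signal at or below the array's own median over all non-control probe sets was treated as background, and this floor was 32.5 units on the null array and 34.2 units on the heterozygous array. For each gene, the probe set with the largest mean of both arrays stood for it. The gene was counted as measured when it exceeded the floor on at least 1 array, and was compared by the log2 ratio of null over heterozygous after signals under the floor were raised to it. Signals of different probe sets do not rank genes by abundance. Of the 59 Rab genes, 50 were measured and 48 of these were above the floor on both arrays. Rab36 was above it in heterozygous cells only and Rab39b in null cells only. The other 9, which were Rab3b, Rab3c, Rab9b, Rab19, Rab26, Rab33a, Rab37, Rab39 and Rab44, were below it on both and give no ratio. Cuzd1 itself read 33.98 units in null and 32.4 units in heterozygous cells, near the floor on both arrays, so it does not check the genotype labels.

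The scale of the arrays limits any statement on direction. The median log2 ratio of all 11893 measured genes was 0.03 as deposited and 0.21 after rescaling to the 9 hybridization control probe sets, whose own median ratio was -0.18. That rescaling moved the share of higher genes among those at least 1.5-fold apart from 54.2% to 83.4%. Ratios below are on the deposited scale, and 14 of the 50 measured Rab genes changed sign on the control scale. The 10 luminal epithelial markers were all measured, with summed signals of 55551 units in null and 54228 units in heterozygous cells. Their ratios were above 0 for 5 and below 0 for 5, and ran from -0.53 (Muc1) to 0.26. Their median was -0.00, or 0.18 on the control scale, so they do not settle the scale.

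The Rab family as a whole differed little between the pools. The median log2 ratio of the 50 measured Rab genes was -0.00, with quartiles of -0.17 and 0.17, against 0.03, -0.18 and 0.23 for all measured genes. On the control scale both medians moved together, to 0.18 and 0.21. The ratio was above 0 for 24 Rab genes and below 0 for 26, and 46.0% of all measured genes were below 0. On the control scale 38 Rab genes were above 0 and 12 below 0, and that share of all genes was not computed. No Rab gene was at least 2-fold apart, a size reached by 2.15% of measured genes. At 1.5-fold, 0 Rab genes were higher and 2 were lower in null cells, which are 4% of the measured Rab genes, while 10.8% of all measured genes were that far apart (5.83% higher and 4.93% lower). A total of 41 Rab genes (82.0%) lay within 1.2-fold, against 60.0% of all measured genes. On the control scale these shares were closer, at 25 Rab genes (50%) and 48.1% of all.

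Signal strength bears on these shares, because ratios of dim genes spread more. The measured genes were divided into 20 bins of signal, and the robust SD of the log2 ratios (scaled median absolute deviation) was computed per bin. It was 0.57 among genes of 39.8 to 48.5 units and 0.19 in the brightest bin. Among genes with a mean signal of at least 500 units, 0 of 19 Rab genes and 4.62% of 2770 genes were at least 1.5-fold apart. The median ratio of these brighter genes was -0.03 for the Rab genes and -0.01 for all. Rab27a was the 1 Rab gene more than 2 robust SDs from the median of its bin, a distance that 7.60% of all measured genes exceeded.

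**Figure D1:**
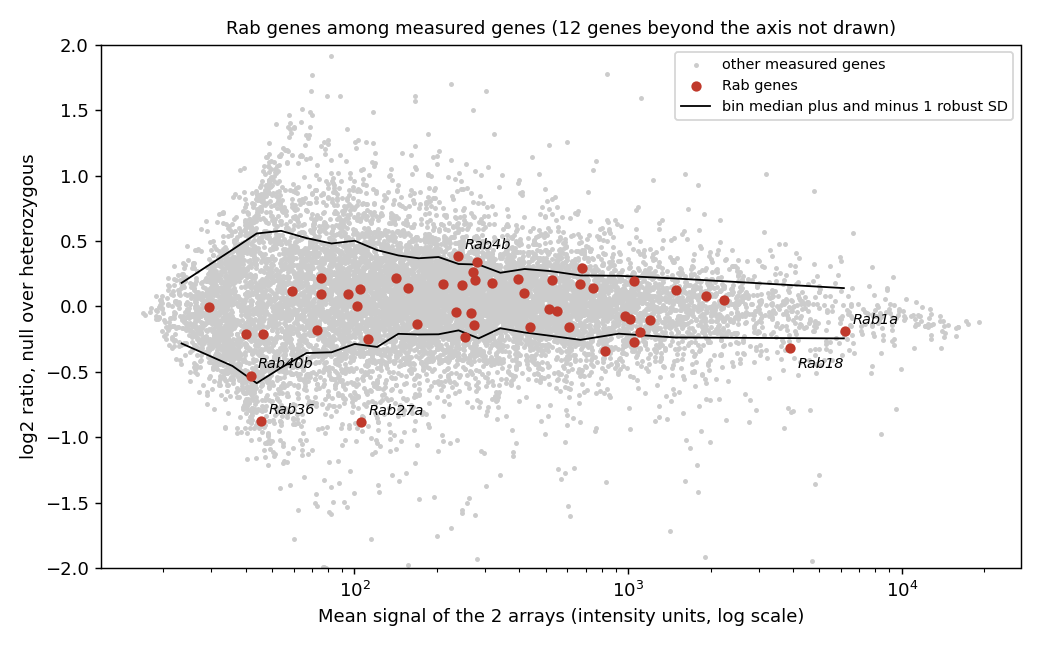
Log2 ratio of null over heterozygous against the mean signal of the 2 arrays (log axis) for each measured gene, with the 50 Rab genes in red and black lines at the median of each signal bin plus and minus 1 robust SD. Most Rab genes sit between the lines. Rab27a (-0.88) and Rab36 (-0.87) have the lowest ratios and lie below the lines, Rab36 in the dim range where the lines are widest apart. The 12 genes with ratios beyond 2 in either direction are not drawn, and none of them is a Rab gene.

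Regulated secretion holds 1 of the 2 genes past 1.5-fold. Rab27a, which docks secretory granules and melanosomes at the plasma membrane, read 74.5 units in null cells, against 137 units in heterozygous cells, 1.84-fold lower with a log2 ratio of -0.88. Its level was above the floor on both arrays, and the robust SD among genes of similar signal was 0.39. The other probe sets of Rab27a were dim: 1 was above the floor in heterozygous cells only (11.8 units in null and 36.9 units in heterozygous cells), and 2 were below it on both arrays. With the mean of the 2 measured probe sets the ratio was -0.53, short of 1.5-fold. On the control scale the ratio of the brighter probe set was -0.70.

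The promoter of Rab27a is shown because the gene was the 1 Rab past 1.5-fold with both signals above the floor and has more than 1 annotated start, and that of Rab25, a Rab of epithelial cells described below, is shown beside it as a gene whose ratio was above 0. The sequences are RefSeq windows of 300 bases (GRCm38.p6), from 250 bases before to 50 after a start, 5′ to 3′ along the gene. Rab27a has windows at chr9:73044560-73044859 and chr9:73063898-73064197 on the plus strand, and Rab25 has 1 at chr3:88548230-88548529 on the minus strand. Capitals mark a CACGTG motif (the E-box read by factors such as MITF and MYC) or a TTCNNNGAA motif (the site form read by STAT factors). Both motifs read the same on either strand, so the search covers both, and no window shown holds both motifs.
Rab27a, first start: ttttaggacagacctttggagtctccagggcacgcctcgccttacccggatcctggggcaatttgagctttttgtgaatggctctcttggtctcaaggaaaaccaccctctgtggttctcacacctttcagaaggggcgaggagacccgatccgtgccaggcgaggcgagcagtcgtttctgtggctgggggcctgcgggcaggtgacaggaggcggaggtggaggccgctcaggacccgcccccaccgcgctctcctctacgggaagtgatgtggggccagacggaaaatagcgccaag
Rab27a, second start: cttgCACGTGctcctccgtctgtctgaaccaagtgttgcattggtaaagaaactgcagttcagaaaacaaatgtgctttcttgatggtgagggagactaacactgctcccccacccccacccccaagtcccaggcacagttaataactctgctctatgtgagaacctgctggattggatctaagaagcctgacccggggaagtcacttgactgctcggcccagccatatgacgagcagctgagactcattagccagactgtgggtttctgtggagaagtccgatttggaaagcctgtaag
Rab25: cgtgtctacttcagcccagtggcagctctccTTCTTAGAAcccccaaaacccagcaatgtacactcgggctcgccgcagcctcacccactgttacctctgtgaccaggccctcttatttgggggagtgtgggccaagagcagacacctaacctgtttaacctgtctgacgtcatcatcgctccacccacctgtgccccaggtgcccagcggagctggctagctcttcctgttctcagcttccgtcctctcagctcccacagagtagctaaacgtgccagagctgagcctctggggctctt

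The 2 Rab27a windows differ in base composition, with 61.3% G and C and 18 CG dinucleotides at the first start against 51.3% and 6 at the second. The second holds 1 CACGTG, and the Rab25 window holds 1 TTCNNNGAA, read as TTCTTAGAA. The table held 60 windows for 48 of the 59 Rab genes. CACGTG occurred in 6 of these windows (10%) and in 7.15% of all 32851 windows, and TTCNNNGAA in 5 (8.33%) and in 8.30%. These are letter matches and were not tied to the ratios.

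The other measured Rabs of regulated secretion had smaller ratios. Rab3d, which sits on zymogen and other large secretory granules of exocrine cells, read 415 units in null and 463 units in heterozygous cells, a log2 ratio of -0.16. Its 4 probe sets ranged from -0.31 to 0.03, and the -0.16 became 0.03 on the control scale. Rab3a, the best known Rab of synaptic vesicles, read 424 units in null and 366 units in heterozygous cells, a ratio of 0.21. A dimmer probe set of Rab3a read 95.5 units in null and 56.0 units in heterozygous cells, a ratio of 0.77. The probe set used for Rab3a is of the kind that can bind several transcripts, and without such probe sets Rab3a was 1.70-fold higher in null cells. Rab27b, the close relative of Rab27a, read 61.6 units in null and 56.8 units in heterozygous cells, a ratio of 0.12, from 1 measured probe set of 4. That probe set is also of the kind that can bind several transcripts, and without it Rab27b was not measured. As read, the ratios of Rab27a and Rab27b had opposite signs, on both scales.

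Rabs that deliver cargo to the apical or lateral surface were above 0 for 6 of 8 genes at their brightest probe sets. Of all 11893 measured genes, 6427 were above 0. The role had a median log2 ratio of 0.18, with 0 genes 1.5-fold apart. By the mean over measured probe sets, Rab8a (-0.02), Rab10 (-0.11), Rab11a (-0.07) and Rab11b (-0.03) were below 0 and the other genes of the role above it. Rab25, a relative of Rab11 found mainly in epithelia, read 744 units in null and 607 units in heterozygous cells, a ratio of 0.29 where the robust SD of the bin was 0.25. Rab17, which is also largely epithelial, read 294 units in null and 257 units in heterozygous cells (0.20), with 0.34 at its other probe set. Rab13, a Rab of tight junction traffic, read 153 units in null and 132 units in heterozygous cells (0.21). These 3 ratios were above 0 under every alternative tried. Rab13 and Rab25 have 1 probe set each, so alternatives of the probe set rule could not change their ratios. All 3 genes were above both floors, so a lower floor or none could not change their ratios either.

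The widely expressed members of that role were mixed. Rab8a, which acts in exocytosis from the Golgi and at the cilium, read 952 units in null and 1148 units in heterozygous cells, a ratio of -0.27 that was -0.09 on the control scale, and its second measured probe set had 0.23. Rab8b, its close relative, read 314 units in null and 249 units in heterozygous cells, a ratio of 0.34. As with the Rab27 pair, the Rab8 relatives lay on opposite sides of 0 on both scales, and no test of the difference was possible. Rab10, which moves cargo to the basolateral surface, read 705 units in null and 627 units in heterozygous cells (0.17), but its 2 other probe sets had -0.31 and -0.18. Rab11a and Rab11b, which mark recycling endosomes, had ratios of -0.07 (952 units in null and 1003 units in heterozygous cells) and 0.14 (777 units in null and 705 units in heterozygous cells). The dimmer probe sets of Rab11b had -0.25 and 0.01.

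**Figure D2:**
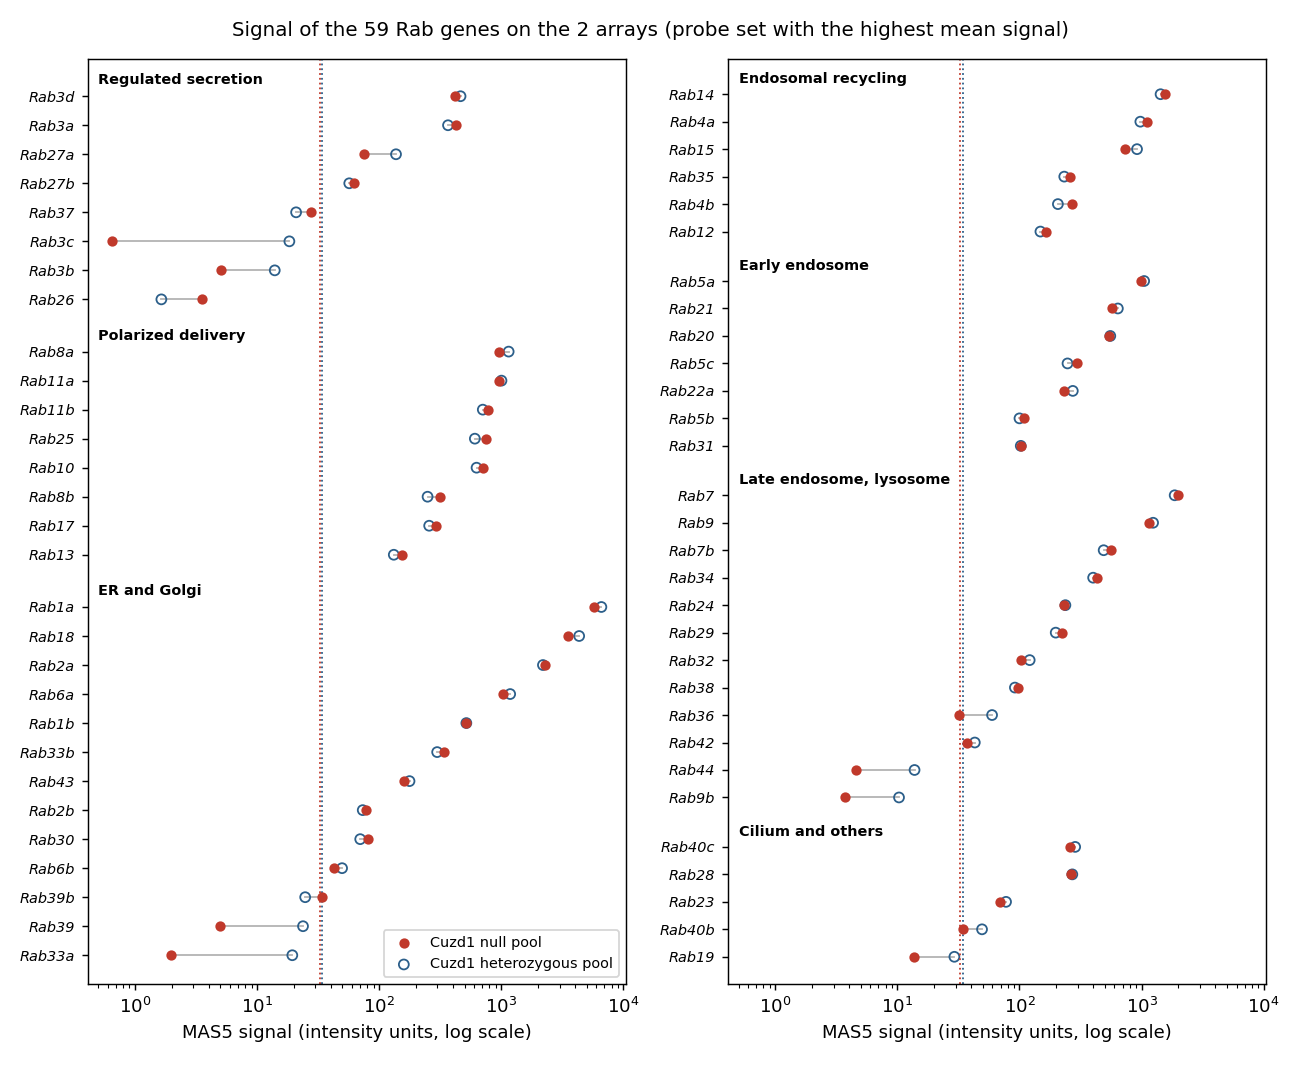
MAS5 signal (log axis) of the 59 Rab genes in the null pool (filled red) and the heterozygous pool (open blue), ordered by role and, within a role, by mean signal of the probe set with the highest mean. Dotted lines are the floors of 32.5 units (null) and 34.2 units (heterozygous). Where both points lie to the right of the floors they are close together for most genes and furthest apart for Rab27a. Rab36 has its null point just left of the floor, and the wide gaps to the left of both floors belong to genes with no ratio.

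Rabs of the endoplasmic reticulum and Golgi had a median log2 ratio of -0.02 over 11 measured genes of 13, with 0 of them 1.5-fold apart. Rab18, which coats lipid droplets and also acts at the endoplasmic reticulum, read 3488 units in null and 4342 units in heterozygous cells, a ratio of -0.32. Its second probe set gave -0.27, at 1537 units in null and 1849 units in heterozygous cells, and the robust SD in the brightest bin was 0.19. Rab18 was below 0 under every alternative, at -0.13 on the control scale. Its signals were far above every floor tried, so changes of the floor could not change its ratio. Rab1a, which tethers vesicles between the endoplasmic reticulum and the Golgi, read 5798 units in null and 6601 units in heterozygous cells (-0.19), and its other probe sets had -0.04 and 0.30. Rab30, a Golgi Rab, read 81.1 units in null and 69.9 units in heterozygous cells (0.22).

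Among the remaining Golgi Rabs, Rab6a, which moves vesicles back through the Golgi, had -0.19 at its brightest probe set, and 0.57 at a dim one. Rab43 had -0.14 at its brightest probe set, while a dimmer one read 32.9 units in null and 65.0 units in heterozygous cells, a ratio of -0.98. A dim probe set of Rab6b had -0.65 and its brightest had -0.21. These dim probe sets were picked out once their values were known. The remaining genes above a floor, Rab1b, Rab2a, Rab2b, Rab33b and Rab39b, ranged from -0.02 to 0.18 at their brightest probe sets. Dimmer measured probe sets ran from -0.49 to 0.02 for Rab2b and from -0.09 to 0.38 for Rab2a. The ratio of Rab39b, above the floor in null cells only, was at least -0.00. Its other probe set was above the floor in heterozygous cells only, at 21.0 units in null and 37.3 units in heterozygous cells.

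Recycling endosome Rabs were above 0 for 5 of 6 genes at their brightest probe sets, with a median of 0.16, while 46.0% of all measured genes were below 0. By the mean over measured probe sets, Rab12 (-0.08) and Rab14 (-0.05) were below 0 as well as Rab15. Rab4b, which returns receptors quickly to the surface, had a ratio of 0.39, the highest of the 50 genes at this floor and choice of probe sets, at 269.6 units in null and 206 units in heterozygous cells, 1.31-fold higher. Rab39b, at 0.47, was above it with no floor, and without probe sets that can bind several transcripts so were Rab3a, at 0.77, and Rab38, at 0.98 or more, its heterozygous signal being below the floor. Rab4a, the relative of Rab4b, read 1118 units in null and 977 units in heterozygous cells, with 0.19 and 0.23 at its 2 probe sets. Rab14, which links endosomes and Golgi, read 1562 units in null and 1431 units in heterozygous cells (0.13), but its 5 other measured probe sets ran from -0.16 to -0.00. Rab15, which slows recycling of receptors, was below 0, at 726 units in null and 918 units in heterozygous cells, a ratio of -0.34. That ratio was -0.15 on the control scale and below 0 under every alternative. Rab15 has 1 probe set and signals far above every floor tried, so alternatives of the probe set rule and of the floor could not change its ratio. Rab12 and Rab35 had 0.14 and 0.17, and a dimmer probe set of Rab12, above the floor in heterozygous cells only, had -0.30.

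Early endosome Rabs had a median of -0.03 over 7 genes. Rab5c, 1 of the 3 Rab5 genes that drive endosome fusion, read 296 units in null and 247 units in heterozygous cells (0.26). Rab5a, another, read 982 units in null and 1049.9 units in heterozygous cells (-0.10). Rab5b had 0.13, with -0.34 at its other probe set. Rab22a, which acts on early endosomes, read 233 units in null and 273 units in heterozygous cells (-0.23), with 0.11, -0.29 and -0.30 at its other probe sets. Rab21, which carries integrins, read 574 units in null and 639 units in heterozygous cells (-0.16). The last 2 of the role, Rab20 and Rab31, had -0.03 and -0.00, and the other probe set of Rab31 had 0.41.

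The late endosome and lysosome role had a median of 0.02 over 10 measured genes of 12 and held the second gene past 1.5-fold. Rab36 read 31.7 units, under the floor, in null cells and 59.6 units in heterozygous cells, at least 1.83-fold lower. At that signal, 31.8% of all genes were at least 1.5-fold apart, and another probe set of Rab36 was above the floor in null cells only, at 36.5 units in null and 24.7 units in heterozygous cells. Rab7, which drives fusion of late endosomes with lysosomes, read 1969.8 units in null and 1867 units in heterozygous cells (0.08). Rab9, which returns mannose 6-phosphate receptors to the Golgi, read 1158 units in null and 1243 units in heterozygous cells (-0.10).

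Rab32 and Rab38 make lysosome-related organelles such as melanosomes. Rab32 read 102 units in null and 121 units in heterozygous cells (-0.25). Rab38 had 0.10 at its brightest probe set, of a kind that can bind several transcripts, and the other read 67.4 units in null cells against 25.8 units, below the floor, in heterozygous cells, at least 1.97-fold higher. The remaining measured genes of the role, Rab7b, Rab24, Rab29, Rab34 and Rab42, ranged from -0.21 to 0.20 at their brightest probe sets. Dimmer probe sets had values such as 0.30 for Rab34 and -0.18 for Rab7b.

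The last role joins cilium Rabs, ubiquitin ligase adaptors and others. All 4 measured genes of 5 were below 0 at their brightest probe sets, with a median of -0.16 that became 0.02 on the control scale. Of all measured genes, 46.0% were below 0. By the mean over measured probe sets, Rab23 (0.04) and Rab28 (0.03) were above 0, and Rab40b and Rab40c stayed below it. Rab40b, whose product has a SOCS box and joins ubiquitin ligases, read 34.2 units in null and 49.3 units in heterozygous cells, a ratio of -0.53 near the floor. Rab40c, its relative, read 259 units in null and 286 units in heterozygous cells (-0.14). Rab23, which restrains Hedgehog signalling, read 68.6 units in null and 77.6 units in heterozygous cells (-0.18), while its 2 other probe sets were above the floor in null cells only, at 37.1 and 38.8 units. Rab28 read 262 units in null and 271 units in heterozygous cells (-0.05), with 0.10 at its other probe set.

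**Figure D3:**
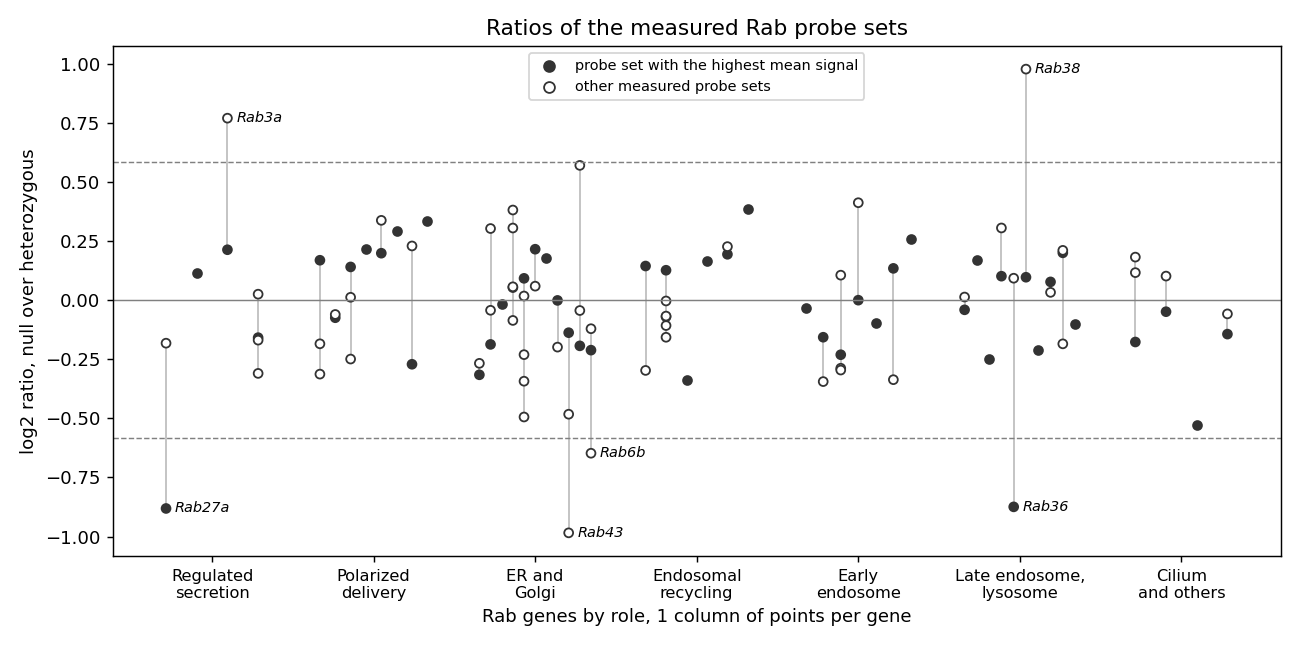
Log2 ratios of null over heterozygous for the 105 measured Rab probe sets by role, with 1 column of points for each gene, filled for the probe set with the highest mean signal and open for the others. Dashed lines mark 1.5-fold. The filled points of Rab27a and Rab36 and the open points of Rab3a, Rab38, Rab6b and Rab43 lie outside the lines, and many columns cross 0.

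Probe sets of the same Rab gene often disagreed in sign. Of 33 Rab genes with at least 2 measured probe sets, 15 (45.5%) had all of them on the same side of 0, against 51.0% of 5418 such genes on the array. With probe sets above both floors the shares were 44.4% of 27 Rab genes and 53.5% of 4722 genes. Of the 105 measured Rab probe sets, 6 (5.71%) were at least 1.5-fold apart, 2 higher and 4 lower, against 11.5% of all 21054 measured probe sets (5.72% higher and 5.81% lower). None was 2-fold apart, which 2.03% of all were. No Rab gene reached 1.5-fold by the mean over its probe sets.

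The partners that load, anchor, recycle and read the Rab proteins were also close to 0. Over the 115 measured of 131 partner genes with a probe set, the median log2 ratio was -0.01, with 3 genes at least 1.5-fold higher and 1 lower (3.48%, against 10.8% of measured genes). The prenylation and recycling genes had a median of -0.09 over 7 genes and none past 1.5-fold. Gdi2, a GDP dissociation inhibitor, read 4472 units in null and 5094 units in heterozygous cells (-0.19), and Rabac1, which helps to release Rabs from that inhibitor, read 2437 units in null and 2594 units in heterozygous cells (-0.09). On the control scale these 2 ratios were -0.00 and 0.09.

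Exchange factors had a median of 0.04 over 28 measured genes, with 1 past 1.5-fold. This was Dennd1a, an exchange factor for Rab35, at 93.0 units in null cells against 35.0 units, just above the floor, in heterozygous cells (2.66-fold higher). Rab35 itself had a ratio of 0.17, at 261 units in null and 233 units in heterozygous cells. GTPase-activating proteins had a median of 0.04 over 33 genes. Tbc1d31, which carries the domain of that family, was at least 1.92-fold higher, at 65.8 units in null cells and 31.7 units, below the floor, in heterozygous cells, but another probe set was above the floor in heterozygous cells only.

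Effectors had a median of -0.05 over 47 measured genes, with 1 higher and 1 lower past 1.5-fold. Ehbp1, which binds Rab8 and Rab10, read 217 units in null and 108 units in heterozygous cells (2.01-fold higher). Rab11fip1, an effector of Rab11 and Rab25, read 224 units in null and 388 units in heterozygous cells (1.74-fold lower), with -0.31 at its other probe set. The effectors of Rab27 that were measured, named after their values were seen, lay on both sides of 0. Exph5 had -0.41, Mlph -0.15, Rph3al -0.06, Sytl2 -0.03, Sytl1 0.15 and Sytl4 0.43, and Myrip was above the floor in null cells only (34.7 units in null and 22.2 units in heterozygous cells).

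**Figure D4:**
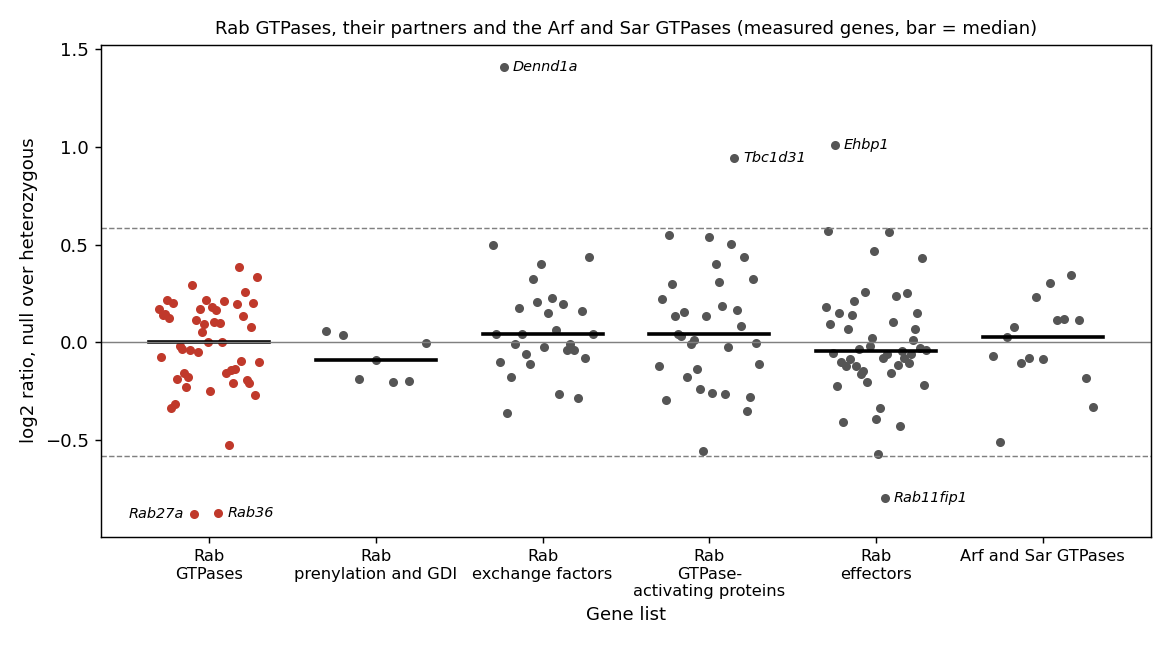
Log2 ratios of null over heterozygous of measured genes in the Rab family (red), the Rab partner lists and the Arf and Sar GTPases (grey), with bars at the medians and dashed lines at 1.5-fold. The medians lie between -0.09 and 0.04, and the 6 labelled genes are those past 1.5-fold.

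Fibroblast, endothelial and myeloid markers had medians further from 0 than the Rab family. For comparison with the counts below, 6427 of all 11893 measured genes were above 0 and 5466 below 0. The 9 fibroblast markers were all above 0, with a median log2 ratio of 0.51 and summed signals of 15217 units in null and 10735 units in heterozygous cells, and all 8 endothelial markers were above 0, with a median of 0.37 and sums of 2169 units in null and 1606 units in heterozygous cells. These are values of the brightest probe sets. Among other measured probe sets of these markers, Cdh5 had -0.54 and the rest were above 0, with 0.04 for Pdgfra. Myeloid markers had a median of 0.32 and were above 0 for 8 of 10. Of the B and plasma cell markers, Jchain (2.09) and Ighm (3.71) were above both floors, Cd79a, Ms4a1 and Mzb1 were above the floor in null cells only, and Cd79b was below both. Of the T and NK cell markers, Cd8a, Nkg7 and Gzma were above both floors, with -0.10 to 0.19, Cd3g was above the floor in null cells only, and Cd3d, Cd3e and Cd4 were below both. Of the adipocyte markers, Fabp4 (-0.15) and Retn (-0.33) were above both floors, while Adipoq and Lep were above the floor in heterozygous cells only. Myoepithelial markers were below 0 for 5 of 8, with a median of -0.11, or 0.07 on the control scale, and summed signals of 18248 units in null and 20206 units in heterozygous cells. The basal keratins Krt17 and Krt14 were 2.93-fold and 1.61-fold lower, a 1.5-fold drop that 4.93% of all measured genes reached. Krt5 (-0.47), Cnn1 (-0.11) and Acta2 (-0.11) were also below 0, while Myh11 (0.01), Oxtr (0.13) and Trp63 (0.53) were above it. Other probe sets had -0.09, -0.71 and -0.66 for Trp63 and 1.05 for Oxtr. Milk secretion genes were below 0 for 9 of 9 with a median of -0.15, or 0.03 on the control scale. All genes of the brightest signal bin, which holds these milk genes, had a median of -0.05 on the deposited scale. The part of these markers in the Rab ratios was not tested, and in pooled tissue fewer cells of a type and less RNA per cell cannot be told apart.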

How the data were processed

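Per the labels' protocols, inguinal mammary glands of mice on day 18 of pregnancy were minced and digested with hyaluronidase and collagenase, and biotin-labelled antisense RNA was made with a 3′ expression kit. Per the series' design text, RNA of 5 mice per genotype was pooled. The deposited values are linear MAS5 signal intensities, which the submitters' processing notes credit to Expression Console (Affymetrix), version 1. No build of the genome is named.

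Of 45101 probe sets, 64 were controls, 34945 had 1 gene symbol, 932 had several and 9160 were not listed. Symbols were updated through Entrez IDs held by the RefSeq mouse table for 34754 probe sets. Genes were summarised, floored and compared as log2 ratios in Python 3.11.15 (pandas 2.3.3, numpy 2.4.6). The procedure was tested on simulated data with changes planted only in brighter genes and less noise than these arrays show. That test does not cover dim genes. With 1 array per group, the number of arrays limits the precision and a fold rule of 1.5 replaces a test. Alternatives changed the floor, scaling, probe set rule and measured rule. The members and lists were chosen with earlier results of these data known. Values were printed for Rab genes past 1.5-fold, for all measured Rabs of secretion and delivery, and for the 2 largest ratios and 2 highest signals of each other role. Of each partner list, genes past 1.5-fold were named, or otherwise the 2 with the highest signal. Other genes given were added after their values were seen.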

Additional observations from a re-analysis of the deposited data

How the results depend on the processing

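The median log2 ratio of the Rab genes was -0.00 as reported, -0.033 both with no floor and with a 25th-percentile floor, and 0.059 with a 75th-percentile floor, which left 36 Rab genes. It was -0.013 with median centring, 0.021 with quantile normalization, 0.18 after rescaling to the hybridization controls, -0.019 with the mean over probe sets, -0.017 without the _s_ and _x_ probe sets, and 0.026 for genes above both floors. The count at least 1.5-fold lower was 2 as reported, 9 with no floor and 6 with the 25th-percentile floor, where signals under the reported floor enter. It was 0 with the 75th-percentile floor, which neither Rab27a nor Rab36 exceeded, 0 with the mean over probe sets, and 1, Rab27a, for genes above both floors. The count at least 1.5-fold higher was 0 as reported, 1 with no floor (Rab26) and 2 without the _s_ and _x_ probe sets (Rab3a and Rab38). The count at least 2-fold apart was 0 as reported, 8 of 59 with no floor and 3 of 57 with the 25th-percentile floor. Of all genes, 19.2% with no floor and 9.22% with the 25th-percentile floor were that far apart. With no floor, 16.9% of Rab genes and 31.8% of all genes were at least 1.5-fold apart. These shares were 10.5% and 23.7% with the 25th-percentile floor, and 8.16% and 11.1% without the _s_ and _x_ probe sets. The ratio of Rab27a ran from -0.91 to -0.53 over the 8 alternatives that measured it. Of the 50 measured Rab genes, 28 kept 1 sign wherever they were measured, 19 of them under all 9 alternatives. For genes with 1 probe set, alternatives of the probe set rule could not change the ratio. For genes above both floors, a lower floor, no floor or the rule of both floors could not change it either. The share of all genes that kept 1 sign was not computed. Rab36 was lower than Rab27a with no floor (-0.91 against -0.88). No paired analysis was possible because each genotype has 1 array. Replicate error is unknown, and ratios of probe sets near the floor are the least certain.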

Other observations

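The Arf and Sar GTPases, the other large family of small GTPases in vesicle traffic, were read for comparison. Of 17 genes with a probe set, 15 were measured, with a median log2 ratio of 0.03, a range of -0.51 to 0.34 and 0 past 1.5-fold. Arf1, which recruits the COPI coat at the Golgi, read 7677 units in null and 8065 units in heterozygous cells (-0.07), and Arf6, which acts at the plasma membrane, read 3252 units in null and 3446 units in heterozygous cells (-0.08). Arf2 had the lowest ratio, at 254 units in null and 363 units in heterozygous cells (-0.51), and was named after its value was seen.

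Some genes with names close to the Rab family lie outside its rule. Rab10os, a transcript from the opposite strand of Rab10, read 87.4 units in null and 145 units in heterozygous cells (-0.73), with -0.39 at its second probe set, while the 3 probe sets of Rab10 had 0.17, -0.31 and -0.18. Rabl2, Rabl3 and Rabl6, which encode Rab-like proteins, had 0.08, 0.13 and -0.11 at their brightest probe sets. These genes were chosen after their values were seen.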
